A study of Mus musculus with 4 samples.

Results

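The 33 genes described here make cholesterol and fatty acids or set how much of them a cell makes. They were chosen by name, as an exact match of a fixed list of gene symbols to the first column of the expression table, and all 33 were found among the 24497 mouse gene entries. By role they are 7 enzymes from acetyl-CoA to farnesyl diphosphate (Acat2, Hmgcs1, Mvk, Pmvk, Mvd, Idi1, Fdps), 3 from there to lanosterol (Fdft1, Sqle, Lss) and 8 from lanosterol to cholesterol (Cyp51, Tm7sf2, Msmo1, Nsdhl, Hsd17b7, Ebp, Sc5d, Dhcr7). A further 5 are regulators (Srebf1, Srebf2, Scap, Insig1, Insig2), 1 is a sterol transfer protein (Stard4), and 9 are fatty acid enzymes (Acly, Acaca, Fasn, Scd1, Scd2, Fads1, Fads2, Elovl5, Elovl6).

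RNA was sequenced from 4 libraries of cultured mouse acute myeloid leukemia cells, 2 of WT genotype and 2 labelled Tet2 KO (n = 2 per group). All 4 carried NRAS and AE9a, the truncated AML1-ETO9a fusion, and grew in RPMI medium. The cytokines added were SCF (50 ng/ml), IL-6 (10 ng/ml) and IL-3 (10 ng/ml), and the selecting drugs were puromycin (2 µg/ml) and G418 (1 mg/ml). No further treatment is given. The cells came from bone marrow hematopoietic stem cells of wild-type mice or of Tet2-/- mice lacking exons 8 to 10. Age, strain, the number of donor mice and the number of independently transformed lines are not given in the sources used here, so differences between groups may also be differences between lines. Values are in TPM, the usual length-corrected unit of transcript share, and have a fixed total in each library.

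Cholesterol is built from acetyl-CoA by way of mevalonate and farnesyl diphosphate, a branch point that also feeds protein prenylation, dolichol and ubiquinone. RAS proteins such as NRAS are farnesylated with that same intermediate. The transcription factors SREBP-1 and SREBP-2, encoded by Srebf1 and Srebf2, switch on most of these enzymes when sterols are low. Their escort Scap carries them out of the endoplasmic reticulum, and Insig1 and Insig2 hold them back. SREBP binds promoters weakly alone and acts beside NF-Y and Sp1, so promoters are shown first.

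RefSeq promoter windows on GRCm38.p6, from 250 bases before to 50 bases after a transcription start, were found for 26 of the 33 genes. Fdps, Fdft1, Sqle, Stard4, Scd1, Scd2 and Fads1 had no entry. The windows below are the 150 bases before the first listed start, read 5′ to 3′ on the gene's strand, for the 5 genes that fell in the knockout-labelled libraries and had an entry, and for Hmgcs1, which did not pass the test. They are shown to set the boxes of genes that fell beside those of a gene whose level hardly moved. Capitals mark the NF-Y box CCAAT on either strand (ATTGG on the reverse) and, in Hmgcs1 only, the sterol response element core TCACNCCAC. The windows lie at chr3:89454391-89454540 (plus strand) for Pmvk, chr8:122443423-122443572 (minus strand) for Mvd and chr10:76531455-76531604 (plus strand) for Lss. Those of Sc5d, Fasn and Hmgcs1 lie at chr9:42264301-42264450 (minus strand), chr11:120824548-120824697 (minus strand) and chr13:119690201-119690350 (plus strand).
Pmvk: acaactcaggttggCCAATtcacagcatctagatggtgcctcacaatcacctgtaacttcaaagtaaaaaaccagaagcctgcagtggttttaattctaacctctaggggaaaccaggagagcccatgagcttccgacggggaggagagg
Mvd: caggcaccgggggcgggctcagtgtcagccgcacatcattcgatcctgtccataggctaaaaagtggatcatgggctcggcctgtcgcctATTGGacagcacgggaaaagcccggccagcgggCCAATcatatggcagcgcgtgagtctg
Lss: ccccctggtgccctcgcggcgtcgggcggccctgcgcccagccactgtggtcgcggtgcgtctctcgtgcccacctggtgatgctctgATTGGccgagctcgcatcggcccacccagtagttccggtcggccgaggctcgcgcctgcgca
Sc5d: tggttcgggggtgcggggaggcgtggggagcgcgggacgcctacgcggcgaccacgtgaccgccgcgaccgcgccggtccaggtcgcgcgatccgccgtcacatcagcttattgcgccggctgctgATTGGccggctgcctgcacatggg
Fasn: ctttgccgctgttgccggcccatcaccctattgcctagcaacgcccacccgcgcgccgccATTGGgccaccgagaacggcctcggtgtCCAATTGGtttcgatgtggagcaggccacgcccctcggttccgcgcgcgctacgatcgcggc
Hmgcs1: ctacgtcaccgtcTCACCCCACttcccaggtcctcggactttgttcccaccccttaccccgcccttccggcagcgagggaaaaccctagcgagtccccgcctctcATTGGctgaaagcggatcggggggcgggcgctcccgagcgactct

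Each of these 6 stretches held at least 1 CCAAT. In Mvd a pair of boxes began 60 and 27 bases before the start, and in Fasn the boxes at 62 and 59 bases overlapped on opposite strands. Over the full windows of the sterol enzymes, 14 of 18 (77.8%) held CCAAT, against 37.4% of all 32851 promoter windows and 38.0% of those of kept genes, meaning those reaching 1 TPM in 2 or more libraries. Counted by gene, with any of its windows enough, 14 of 15 sterol enzymes and 3 of 6 fatty acid enzymes held the box, against 41.1% of all genes with a window. The Sp1 box GGGCGG, searched on both strands, was in 15 of 18 sterol enzyme windows (83.3%), against 35.7% of all windows and 61.8% of those of kept genes. The element core TCACNCCAC, searched on both strands, was in the window of Hmgcs1, 137 bases before the start, and in 1.24% of all windows. Genes that fell and genes that did not pass shared these letters: Hmgcs1, Idi1, Msmo1 and Tm7sf2 also held CCAAT. A match is only a match of letters, and no binding was measured.

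**Figure D1:**
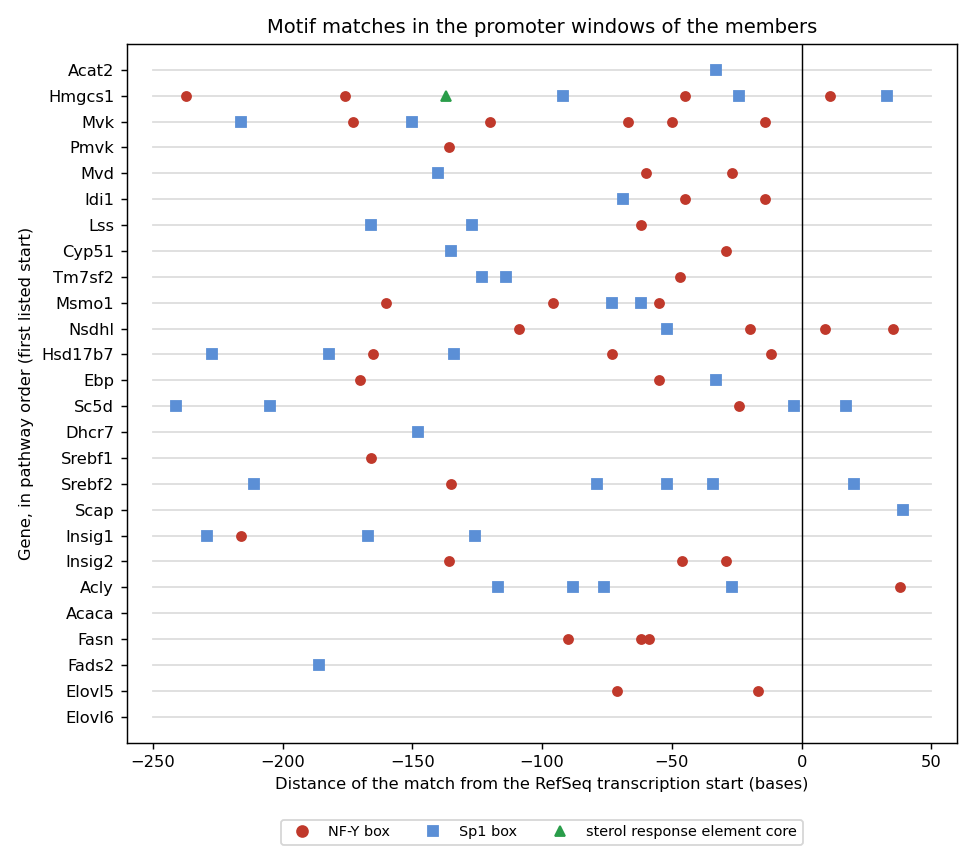
Each row is a gene with a RefSeq promoter window, in pathway order, using its first listed start. The horizontal axis is the distance in bases from that start, and symbols mark the first base of each match to the NF-Y box, the Sp1 box or the sterol response element core on either strand. Over all their windows 14 of 15 sterol enzymes hold an NF-Y box, and the element core is seen in Hmgcs1.

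Tet2 itself, given first as a check of the labels, had 35.0 and 40.0 TPM in WT and 53.5 and 52.8 TPM in the knockout-labelled libraries, a log2 change of 0.50 (SE 0.067, adjusted p = 0.0054). A value for the whole gene cannot show the loss of exons 8 to 10, so the groups are called WT and knockout-labelled. Between 11630 and 11731 genes reached 1 TPM per library, and read depth is unknown. Of the 10 progenitor and blast markers examined, 9 were kept and Flt3 was not. Of those 9, Kit, Cd34, Mpo and Cebpa rose, Gfi1 fell (log2 change -0.44, adjusted p = 0.0031) and 4 did not pass. The 8 lymphoid markers summed to between 0.21 and 0.48 TPM in any library, with Cd3e, Ms4a1 and Ncr1 listed at 0 in all 4. Neutrophil markers moved with the groups. All 11 fell, and their summed level was 47107 and 46476 TPM in WT and 23768 and 24068 TPM in the knockout-labelled libraries. Of 11 monocyte and macrophage markers 4 fell and 4 rose, with sums of 3156 and 3285 TPM in WT and 2604 and 2580 TPM in the other group. Of 10 mast cell and basophil markers 8 were kept, of which 5 fell and 1, Cpa3, rose. The 10 summed to 2034 and 2114 TPM in WT and 2180 and 2118 TPM in the other group. Cpa3 alone had 1302 and 1366 TPM in WT and 1667 and 1606 TPM in the other group. Whether these shifts have a part in the results below was not tested, and in bulk RNA fewer cells of a type cannot be told apart from less RNA per cell.

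Among the sterol enzymes 6 of 18 fell in the knockout-labelled libraries and 0 rose, Fdps by the most, while of 9 fatty acid enzymes Fasn alone passed the test. Of the 33 genes, 7 fell and 1 rose at an adjusted p under 0.05 (limma, adjusted over all 11837 kept genes), and 25 did not pass. The genes that fell were Fdps, Mvd, Sc5d, Fasn, Lss, Pmvk and Sqle, and the gene that rose was Stard4. Over all kept genes 30.5% were called, 11.6% lower and 18.9% higher, so 8 calls among 33 genes is near the general rate, and 7 lower and 1 higher is the reverse of the general balance. Both knockout-labelled values lay below both WT values in 15 of the 33 genes, against 26.5% of all kept genes, and above them in 10, against 42.2%. That makes 25 of 33 genes whose groups did not overlap, against 68.6%. The median log2 change was -0.03 over the 33 genes and 0.04 over all kept genes. With trimmed-mean or quantile scaling 10 of the 33 were lower and 0 higher, Mvk, Ebp and Scap joining the 7, and Stard4 no longer passing. With spike-in scaling 7 were lower and 0 higher, Hsd17b7 (adjusted p = 0.031) taking the place of Sqle (0.065). Of all called genes 62.0% were higher on the deposited scale. That share became 54.2% after quantile scaling, 48.2% after trimmed-mean scaling and 29.9% after spike-in scaling, the last of which moved the median of all kept genes to -0.07. Without replicate 1 or without replicate 2 of the knockout-labelled group, Fdps was the only member that passed. Without WT replicate 1, Fdps, Mvd and Sc5d fell and Stard4 rose.

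**Figure D2:**
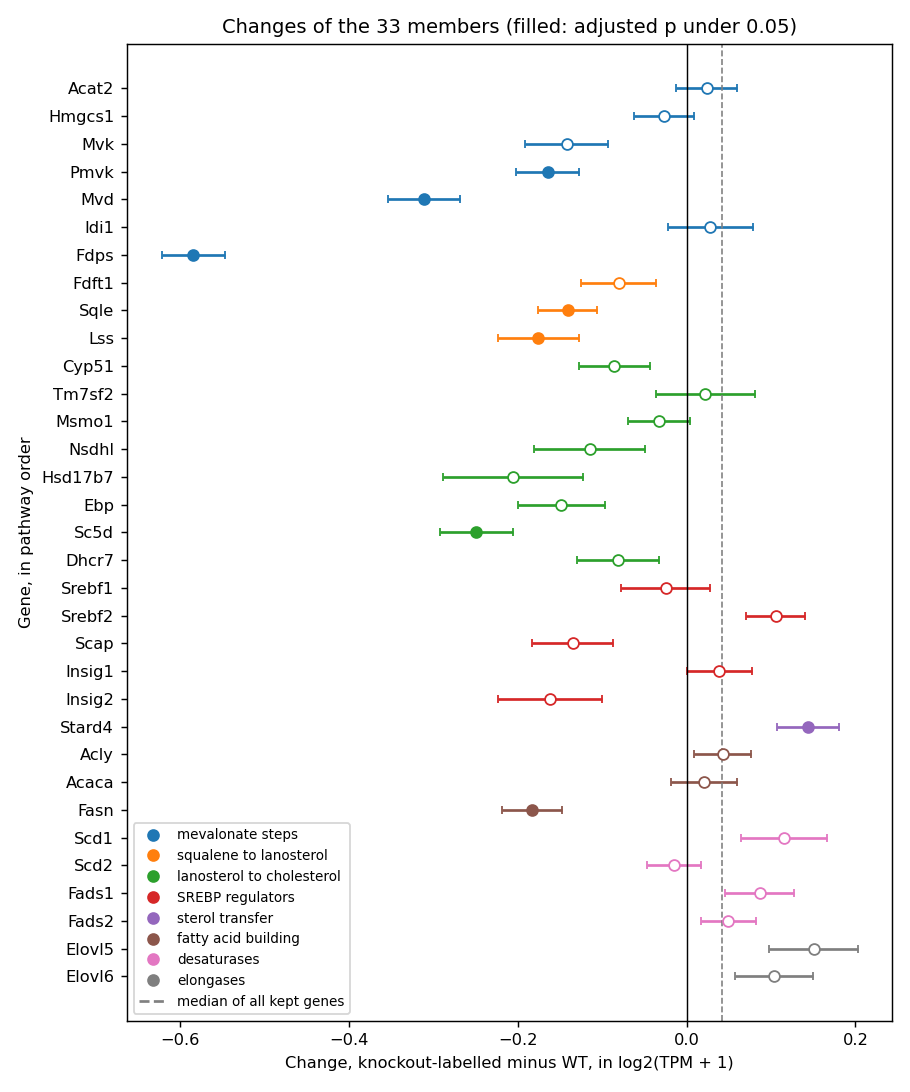
Rows are the 33 genes in pathway order, coloured by role. Points are the log2 change on the log2(TPM + 1) scale, knockout-labelled minus WT, with the limma standard error as bars, filled where the adjusted p is under 0.05, and the dashed line is the median of all kept genes at 0.04. On the deposited scale shown, Fdps lies farthest left at -0.58, sterol enzymes lie mostly left of 0, and most fatty acid enzymes lie right of 0 with open points. With spike-in scaling, not shown, 2 fatty acid enzymes had an estimate above 0.

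In the mevalonate steps 3 of 7 enzymes fell and 4 did not pass, against 11.6% of all kept genes lower. Fdps had the lowest change of all 33 genes. Fdps, which makes farnesyl diphosphate, had 544 and 516 TPM in WT and 351 and 355 TPM in the knockout-labelled libraries. Both knockout-labelled values were far below both WT values, and the means were 530.1 ± 20.3 and 353 ± 3.24 TPM (SD, n = 2 each), so the mean fell by 33.4%. Its log2 change was -0.58 (SE 0.038, adjusted p = 5.6e-04), and 3.59% of kept genes had a lower change. The fall passed under all 15 alternatives that keep this threshold, with adjusted p from 7.0e-05 to 0.022. Fdps lies on chromosome 3 from 89093588 to 89101959 on the minus strand of GRCm38. In GENCODE release 21 the gene model Gm43738 shares 1124 of its exon bases on the same strand, and 4 processed pseudogenes (Gm3571, Gm5873, Gm7979, Gm8163) match its transcript at 96.1% to 98.9% identity over 605 to 1066 bases. None of these has an entry in the expression table. Whether their reads were added to Fdps, left out or divided is not known, so the level of Fdps is uncertain. How that would move the change was not tested.

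Mvd, the decarboxylase that makes isopentenyl diphosphate, had 93.5 and 88.2 TPM in WT and 73.7 and 72.3 TPM in the knockout-labelled libraries. The groups were well apart, with a log2 change of -0.31 (SE 0.042, adjusted p = 0.0054), and the mean fell by 19.6%. When a knockout-labelled replicate was left out, its adjusted p was 0.058 (replicate 1) or 0.066 (replicate 2). Pmvk, the kinase just before it, had 75.9 and 74.3 TPM against 67.9 and 65.9 TPM. That difference was smaller than that of Mvd but without overlap (log2 change -0.16, SE 0.037, adjusted p = 0.025). The Pmvk call was lost without WT replicate 1 (adjusted p = 0.080) and without either knockout-labelled library (0.11 and 0.16).

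The other enzymes of this stretch did not pass. Hmgcs1, which forms HMG-CoA, had 118 and 120 TPM in WT and 115 and 118 TPM in the knockout-labelled libraries, with groups that overlapped. Its log2 change was -0.03 (SE 0.035, adjusted p = 0.60). Idi1, which isomerises isopentenyl diphosphate for use by Fdps, had 106 and 115 TPM against 114 and 110 TPM, also overlapping. Mvk, mevalonate kinase, had a log2 change of -0.14 (SE 0.049, adjusted p = 0.081), and Acat2, the cytosolic thiolase that starts the route, 0.02 (SE 0.036, adjusted p = 0.65). The transcript of Acat2 matches that of Acat3 at 97.7% identity over 1477 bases. It also matches that of Tcp1, a chaperonin subunit at 357 to 404 TPM, at 98.7% identity over 445 bases. These matches were searched on both strands and their strand was not recorded. The level of Acat2 is therefore uncertain, and how far may depend on the strand setting of the counting, which is not given.

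Ratios within a library do not depend on the total to which TPM are scaled, and Fdps was lower relative to each of 3 neighbours in the route. The ratio of Fdps to Idi1 was 5.15 and 4.49 in WT, against 3.07 and 3.22 with the knockout label. The ratio of Fdps to Fdft1, the next enzyme toward sterols, was 10.1 and 9.30 in WT, against 6.64 and 7.07. Against Ggps1, which extends farnesyl to geranylgeranyl diphosphate, the ratio was 67.1 and 67.8 in WT, against 36.8 and 35.9. Ggps1 itself had a log2 change of 0.27, which lowers this ratio further. In each of these ratios the groups did not overlap. Idi1 and Fdft1 also have near-identical processed pseudogenes, likewise without an entry in the expression table. For Idi1 they are Gm13502 (100% over 684 bases) and Gm35570 (97.7% over 681 bases), and for Fdft1 Gm6781 (97.4% over 1249 bases). The ratios therefore carry the same uncertainty as Fdps. A pair of libraries against a pair cannot go below p = 0.333 in an exact two-sided permutation test, so no test is given for ratios.

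**Figure D3:**
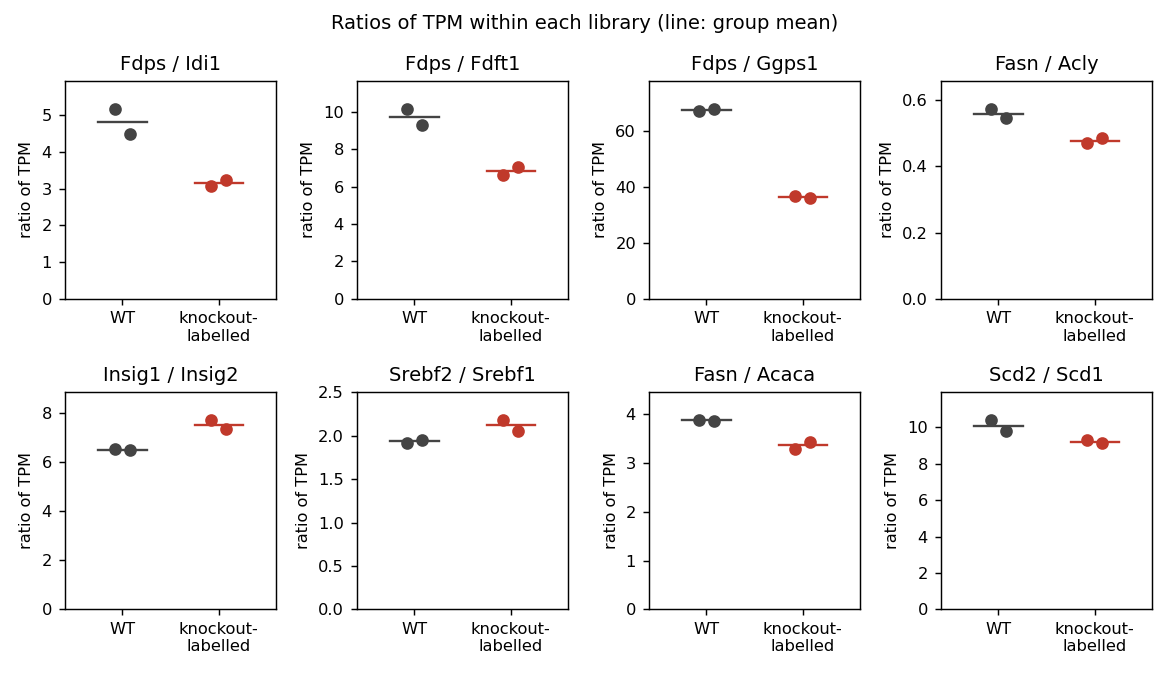
Panels show the ratio of TPM of the named genes within each of the 4 libraries, with the vertical axis from 0, points for libraries and lines for group means. The 3 Fdps ratios are lower in both knockout-labelled libraries, Insig1 / Insig2 is higher, and no panel has overlapping groups. Not every ratio computed is shown, and Fads2 / Fads1, left out here, had overlapping groups.

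From farnesyl diphosphate to lanosterol, 2 of 3 enzymes fell, against 11.6% of all kept genes lower. Sqle, the squalene epoxidase and a rate-setting step, had 111 and 107.5 TPM in WT and 98.4 and 99.5 TPM in the knockout-labelled libraries (log2 change -0.14, SE 0.035, adjusted p = 0.033). Lss, which closes the sterol ring, had 27.3 and 27.9 TPM against 23.8 and 24.9 TPM (log2 change -0.18, SE 0.048, adjusted p = 0.043). Neither pair of groups overlapped, but both calls were lost without either knockout-labelled library (adjusted p from 0.12 to 0.22) and without WT replicate 1 (0.090 for Sqle, 0.096 for Lss). The Lss call was also lost without WT replicate 2 (adjusted p = 0.12), and the Sqle call with spike-in scaling (adjusted p = 0.065). Both were lost without the variance trend (0.087 for Sqle, 0.067 for Lss), and Lss with no filter on low values (0.070). Fdft1, squalene synthase, had a log2 change of -0.08 (SE 0.044, adjusted p = 0.22). Its exons share 774 bases with Ctsb on the opposite strand, a lysosomal protease at 241 and 237 TPM in WT and 171 and 174 TPM in the knockout-labelled libraries. The strand setting of the counting is not given in the sources used here, so reads of these genes may not be told apart.

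Between lanosterol and cholesterol 1 of 8 enzymes fell, which is near the 11.6% of all kept genes. Sc5d, the sterol desaturase near the end of the route, had 61.9 and 65.2 TPM in WT and 54.0 and 52.6 TPM in the knockout-labelled libraries. The groups were clearly separate, with a log2 change of -0.25 (SE 0.043, adjusted p = 0.011). Leaving out a knockout-labelled replicate gave an adjusted p of 0.081 (replicate 1) or 0.099 (replicate 2). Of the other 7, Hsd17b7 had a log2 change of -0.21 (SE 0.083, adjusted p = 0.12) at 11.8 and 13.7 TPM against 11.0 and 10.8 TPM. It was the lowest of the 33 genes in level, and its change was -0.31 without WT replicate 1 and -0.10 without WT replicate 2. Ebp, the sterol isomerase, had a log2 change of -0.15 (SE 0.051, adjusted p = 0.081). The remaining 5 (Cyp51, Tm7sf2, Msmo1, Nsdhl, Dhcr7) had changes from -0.11 for Nsdhl to 0.02 for Tm7sf2, with adjusted p from 0.18 to 0.81. That of Nsdhl was -0.20 without WT replicate 1 and -0.03 without WT replicate 2. Tm7sf2 shares 532 exon bases on the same strand with Vps51, a gene at 23.7 to 27.5 TPM, so the level of Tm7sf2 is uncertain.

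**Figure D4:**
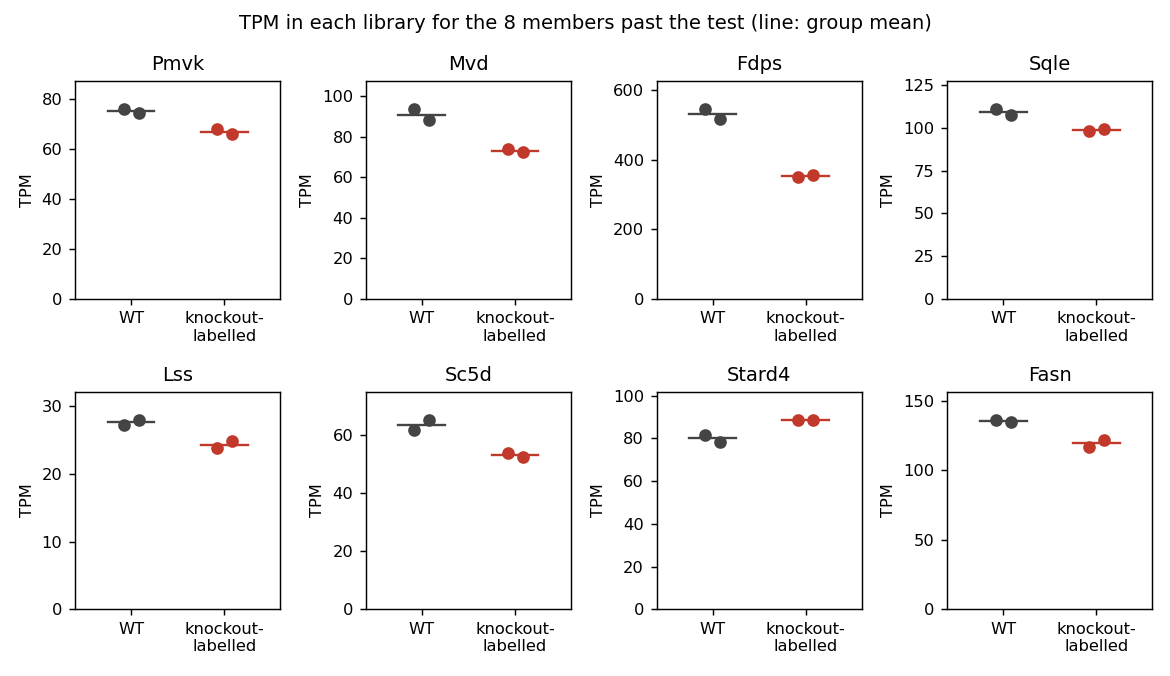
Panels show TPM in each of the 4 libraries for the 8 genes past the test, with the vertical axis from 0, points for libraries and lines for group means. In each panel both knockout-labelled points lie on the same side of both WT points: below in 7 panels and above for Stard4.

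Taking the 18 sterol enzymes as a set, 6 fell, 0 rose and 12 did not pass. Over all kept genes 30.5% were called, 11.6% lower and 18.9% higher, so the number called is near the general rate and the direction is not. The median log2 change was -0.13 over the 18 and 0.04 over all kept genes. At an unadjusted p under 0.05 (limma), 8 were lower and 0 higher, against 1921 lower and 3197 higher of all 11837 kept genes. In 12 of the 18 sterol enzymes both knockout-labelled values were below both WT values, against 26.5% of all kept genes. Their summed level was 1678 and 1671 TPM in WT and 1418 and 1430 TPM in the knockout-labelled libraries. Most of that difference was Fdps. Without it the other 17 summed to 1133 and 1155 TPM in WT and 1067 and 1074 TPM, still without overlap. On the deposited scale the estimated change was below 0 for 15 of the 18, against 4878 of all 11837 kept genes. Both numbers depend on the scale. Of the 18, 17 were below 0 with quantile scaling and 18 with trimmed-mean or spike-in scaling. The median of all kept genes was then 0.015, -0.002 and -0.07.

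Of the 9 fatty acid enzymes 1 fell, 0 rose and 8 did not pass, near the 11.6% lower of all kept genes. No difference from the sterol enzymes was tested. At an unadjusted p under 0.05 (limma), 1 was lower and 1 higher, against 1921 lower and 3197 higher of all 11837 kept genes. Fasn, the fatty acid synthase, had 136 and 135 TPM in WT and 117 and 122 TPM in the knockout-labelled libraries. Its groups did not overlap (log2 change -0.18, SE 0.036, adjusted p = 0.016), but the call was lost without either knockout-labelled library (adjusted p = 0.13 and 0.079) and without WT replicate 1 (adjusted p = 0.055). Acaca, the acetyl-CoA carboxylase that feeds it, had 35.0 and 34.9 TPM in WT and 35.5 and 35.4 TPM (log2 change 0.02, SE 0.039, adjusted p = 0.73). Acly, which supplies cytosolic acetyl-CoA from citrate, had 238 and 247 TPM against 249 and 250 TPM (log2 change 0.04, SE 0.034, adjusted p = 0.38). The ratio of Fasn to Acaca was 3.88 and 3.87 in WT, against 3.29 and 3.43, without overlap. Acaca is 99.2% identical over 6118 bases to the processed pseudogene Gm5182, which has no entry in the expression table, so the level of Acaca is uncertain.

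Desaturases and elongases did not pass. Scd2, the most abundant of the 33 genes, had 829 and 854 TPM in WT and 829 and 837 TPM in the knockout-labelled libraries (log2 change -0.01, SE 0.032, adjusted p = 0.76). Its sister stearoyl-CoA desaturase Scd1 had 79.8 and 87.1 TPM against 89.2 and 91.6 TPM (0.12, SE 0.051, adjusted p = 0.15). The Scd2 transcript is 95.5% identical over 623 bases to an Scd1 transcript, so reads of Scd1 and Scd2 may not be fully told apart. Without WT replicate 2, Scd1 passed (0.18), as did the elongase Elovl5 (0.22), and without WT replicate 1 their changes were 0.05 and 0.08. With all libraries Elovl5 had 151 and 167 TPM against 178 and 175 TPM (0.15, SE 0.052, adjusted p = 0.082). Elovl6, Fads1 and Fads2, the last pair being desaturases of polyunsaturated chains, had changes of 0.10, 0.09 and 0.05. The estimates of 7 of the 9 fatty acid enzymes were above 0, against 6959 of all 11837 kept genes, and none of those 7 passed. The number above 0 depended on the scale: it was 6 with quantile, 5 with trimmed-mean and 2 with spike-in scaling. The ratio of the summed sterol enzymes to the summed fatty acid enzymes, which a scaling factor per library does not move, was 0.955 and 0.917 in WT, against 0.785 and 0.787. Without Fdps it was 0.645 and 0.634 in WT, against 0.591 in both other libraries. The summed fatty acid enzymes came to 1757 and 1822 TPM in WT and 1805 and 1818 TPM in the knockout-labelled libraries. Scd2 was the largest part of each sum, and the ratio without Scd2 was not computed.

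**Figure D5:**
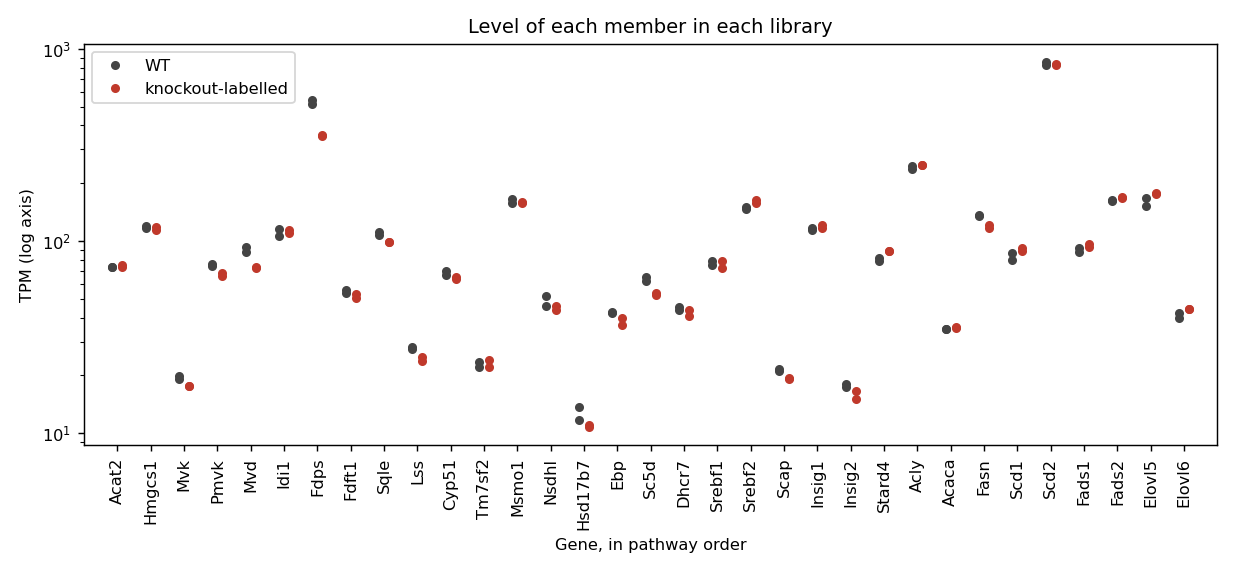
The vertical axis is TPM on a log scale and the horizontal axis lists the 33 genes in pathway order, with a point for each library. Levels run from about 11 TPM for Hsd17b7 to 854 TPM for Scd2, and Fdps shows the widest gap between the groups.

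None of the 5 regulators passed. At an unadjusted p under 0.05 (limma), 1 was higher and 2 lower, against 3197 higher and 1921 lower of all 11837 kept genes. Srebf2, the factor tied most closely to sterol genes, had 151 and 147 TPM in WT and 158 and 163 TPM in the knockout-labelled libraries, without overlap (log2 change 0.11, SE 0.035, adjusted p = 0.071). Srebf1, tied more to fatty acid genes, had 78.9 and 75.3 TPM against 72.6 and 79.0 TPM, with overlap (-0.02, SE 0.053, adjusted p = 0.76). Scap had 21.7 and 20.98 TPM against 19.5 and 19.2 TPM (-0.13, SE 0.048, adjusted p = 0.087). Insig1, itself a target of SREBP, had 118 and 114 TPM against 116 and 121 TPM, with overlap (0.04, SE 0.039, adjusted p = 0.49). Insig2 had 18.03 and 17.5 TPM against 15.1 and 16.5 TPM (-0.16, SE 0.062, adjusted p = 0.10). The ratio of Insig1 to Insig2 was 6.52 and 6.50 in WT, against 7.72 and 7.35.

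Stard4, which moves sterol between membranes, was the only member called higher. It had 81.5 and 78.5 TPM in WT and 88.5 and 88.4 TPM in the knockout-labelled libraries, without overlap (log2 change 0.14, SE 0.037, adjusted p = 0.036). The call was lost with trimmed-mean, quantile and spike-in scaling (adjusted p = 0.13, 0.058 and 0.84), without either knockout-labelled library (adjusted p = 0.18 each) and without WT replicate 2 (adjusted p = 0.083). It was also lost without the variance trend (0.087) and with no filter (0.05005).

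Other genes of the same routes were read from 4 lists. Of 15 further sterol and SREBP genes 2 rose, 2 fell and 11 did not pass, beside 18.9% higher and 11.6% lower among all kept genes. Npc1, which exports cholesterol from lysosomes, fell (-0.23), while its partner Npc2 (0.19) and the SREBP protease Mbtps2 (0.34) rose. The Npc2 and Mbtps2 calls were lost with spike-in scaling (adjusted p = 0.56 and 0.070) and without either knockout-labelled library (0.068 to 0.12), and that of Mbtps2 also without WT replicate 1 (0.054). The Npc1 call was lost without either knockout-labelled library (adjusted p = 0.12 each) and without WT replicate 2 (0.051).

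Of 27 further fatty acid genes 19 were kept, of which 4 rose, 1 fell and 14 did not pass, also near the shares of all kept genes (18.9% higher, 11.6% lower). Acss2, which makes acetyl-CoA from acetate, had 11.4 and 12.4 TPM in WT and 18.3 and 17.8 TPM in the knockout-labelled libraries, a clear separation (log2 change 0.56, SE 0.060, adjusted p = 0.0027). Its rise passed under all 15 alternatives at this threshold, with adjusted p from 6.7e-04 to 0.042. The elongase Elovl7 (0.42) and the acyl-CoA synthetase Acsl3 (0.36) rose, and Acsl1, another acyl-CoA synthetase, fell (-0.44). The Acsl3 call was lost with spike-in scaling (adjusted p = 0.081).

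Of 15 genes that make or act on non-sterol products of farnesyl diphosphate, 3 rose, 1 fell and 11 did not pass. That is near the 18.9% higher and 11.6% lower of all kept genes. Ggps1 had 8.12 and 7.61 TPM in WT and 9.54 and 9.90 TPM in the knockout-labelled libraries (log2 change 0.27, SE 0.067, adjusted p = 0.032). Fntb, the beta subunit of the farnesyltransferase that modifies RAS, rose (0.21, adjusted p = 0.033), as did Coq2 of ubiquinone synthesis (0.21, adjusted p = 0.043), whereas Dhdds of dolichol synthesis fell (-0.21, adjusted p = 0.029). Under spike-in scaling Ggps1, Fntb and Coq2 had adjusted p of 0.28, 0.45 and 0.47. Leaving out any single library ended these 3 calls (adjusted p from 0.062 to 0.19), and the Dhdds call ended without WT replicate 2 (0.073) or either knockout-labelled library (0.14 and 0.16).

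Of 11 genes of sterol efflux, esterification and oxidation 9 were kept, of which 3 rose, 1 fell and 5 did not pass, beside the same 18.9% and 11.6%. Ch25h, which makes an oxysterol that restrains SREBP, had 3.62 and 2.75 TPM in WT and 0.57 and 0.63 TPM in the knockout-labelled libraries. Its log2 change of -1.38 (SE 0.15, adjusted p = 0.0027) depends on the pseudocount of 1 at so low a level: it was -2.22 with a pseudocount of 0.1 and -0.55 with 5. Soat2, which esterifies cholesterol, had 4.62 and 4.46 TPM against 7.27 and 7.77 TPM (0.62, SE 0.076, adjusted p = 0.0041, and 0.39 with a pseudocount of 5). The cholesterol exporter Abca1 (0.35, and 0.20 with a pseudocount of 5) and the ester hydrolase Nceh1 (0.24) also rose. Both of these calls were lost with spike-in scaling (adjusted p = 0.13 and 0.29) and without either knockout-labelled library (0.12 to 0.17), and without WT replicate 1 (0.087 and 0.12). That of Abca1 was also lost without WT replicate 2 (0.066).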

How the data were processed

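Leukemia cell libraries (2 WT, 2 labelled Tet2 KO, grouped and numbered by their titles) were compared. The authors deposited TPM for 24589 entries, a unit read from the values, as the column totals are equal and fixed. STAR, RSEM and mm10 are named, without roles, per the submitters' processing notes. Versions, annotation and strand setting are not given in the sources used here. TPM keep no read depth, so no counting interval was given. The 92 spike-in entries share the total and were left out of tests. Genes at 1 TPM or more in at least 2 libraries (11837) were tested on log2(TPM + 1) by limma 3.58.1 in R 4.3.3, with a variance trend and no replicate block, and two-sided p-values were adjusted by the Benjamini-Hochberg method over all of them. The fit had 2 residual degrees of freedom and a prior of 3.51. It was also run on simulated data with independent normal noise, each gene keeping its spread from these libraries. Such data cannot show how the p-values hold for technical replicates or differences between lines. Low values are understated on the log2(TPM + 1) scale.

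The members, lists and tests were chosen with earlier results of these data known. All members were accounted for, and genes outside them were named if among the 4 smallest adjusted p of their list, beside Ggps1, chosen whatever its values. Some genes that the rule names are not reported here. Whether replicates were separate cultures is not stated, so the replicate spread behind each p-value may be technical only. Copies (at least 95% identity over 200 bases on either strand, blastn 2.17.0) and exon overlaps came from GENCODE mouse release 21. Trimmed-mean (TMM) factors were computed from the kept TPM. Alternatives were a replicate block, quantile, trimmed-mean and spike-in scaling, other filters, pseudocounts, variance priors and thresholds, and leaving out each library.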

Additional observations from a re-analysis of the deposited data

How the results depend on the processing

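Each count below is read against 2237 higher and 1369 lower genes in all, 1 higher and 7 lower among the 33 members, and 12 higher and 5 lower among 58 kept genes of the other 4 lists. Leaving out 1 library, with the lone library of its group assumed to vary like the others, gave 500 to 1910 higher and 515 to 995 lower genes in all, 0 to 2 higher and 1 to 6 lower members, and 4 to 11 higher and 2 to 5 lower genes of the other lists. At an adjusted p under 0.01 there were 839 and 666 genes in all, 0 and 2 members, and 4 and 2 others. Without a variance trend 0 members were higher, 3 members lower and 3 others lower, Pmvk (adjusted p = 0.065) and Fasn (0.054) being lost beside Sqle, Lss and Stard4. With no filter 0 members and 7 others were higher. With quantile scaling 0 members were higher, with trimmed-mean scaling 0 members were higher and 10 others lower, and with spike-in scaling 631 genes in all, 0 members and 3 others were higher. No called member, and no called gene named from the other lists, changed its sign. The cause of these shifts was not tested.

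The share of TPM held by the 33 members, 0.392% on average in WT and 0.371% in the knockout-labelled group, was 0.405% and 0.384% without the spike-in entries, since the total is then smaller. With the replicate number as a block, 1888 genes were higher and 1183 lower, and 0 members were higher and 5 lower: the calls of Sqle (adjusted p = 0.063), Lss (0.058) and Stard4 (0.060) were lost under the block. The labels give no basis for pairing beyond the shared number, and the deviations of same-numbered libraries had a correlation of -0.11. A replicate block with crossed numbers, chosen after seeing the data, gave 2136 and 1327 genes and 2 higher and 6 lower members. TPM give no depth, so its effect on precision could not be judged.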
